A study of Mus musculus with 7 samples.

Results

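The regions described here are the 311 Chd7 binding peaks of cerebellar granule neuron progenitors (GNPs) that lay inside protein-coding genes, away from transcription starts and under histone H3 lysine 27 acetylation (H3K27ac), out of 1946 Chd7 peaks called in wild-type (WT) cells. They were selected on 4 properties of each peak. The summit lay more than 1 kb from every annotated transcript start, the summit lay in the body of a protein-coding gene on chromosomes 1 to 19 or X, the peak shared at least 1 bp with an H3K27ac peak of WT GNPs, and it shared none with a Chd7 peak of Chd7-deficient GNPs. The presence of Chd7 and H3K27ac therefore defined the regions and is not a finding. Of the other Chd7 peaks, 838 lay at active promoters, 361 at distal H3K27ac sites outside protein-coding genes and 359 away from H3K27ac, whereas 31 were shared with Chd7-deficient GNPs and 46 lay on other chromosomes or scaffolds.

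The cells came from mouse pups at postnatal day 7 of the strain labelled C57BL/6, which is C57BL/6N in the study's methods. GNPs were used directly after isolation, and cerebellar granule neurons (CGNs), the postmitotic cells they become, were obtained by culture without Sonic hedgehog for 48 h. WT cells carried the floxed allele without Cre (Chd7 f/f), and Chd7-deficient cells came from Atoh1-Cre::Chd7 f/f mice, in which Cre is driven by Atoh1 and acts in the granule lineage. Peaks were available for Chd7 in GNPs of both genotypes, H3K27ac in WT GNPs and the topoisomerase Top2b in CGNs of both genotypes, with 1 sample per condition and no further treatment. No difference could therefore be compared with the spread between animals, no test was made, and the 95% Wilson intervals given with shares cover counting error over regions only. Binding of Chd7 was measured in progenitors and Top2b in neurons, so the stage differs as well as the protein. The number of pups behind each sample is not given in the sources used here, and for depth the study's methods state only a minimum of mapped reads over its libraries, with no value per sample.

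Chd7 is an ATP-dependent chromatin remodeller that slides nucleosomes and opens DNA, and mutations in its gene cause CHARGE syndrome. H3K27ac marks active promoters and enhancers. An enhancer often lies within an intron, either of the gene it serves or of a neighbour. Top2b, the topoisomerase II of postmitotic neurons, passes one DNA duplex through another and is known for its role in the expression of long genes. Granule neurons are the most abundant neurons of the brain, and their progenitors divide in the external layer of the cerebellum under Sonic hedgehog before they differentiate and migrate inwards.

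The cell type was checked through H3K27ac within 1 kb of the starts of marker genes. Of 13 markers of the granule lineage, 12 had such a peak, including Atoh1, Pax6, Zic1, Barhl1 and Neurod1, and Ccnd1 did not. A peak was also present at 5 of 6 markers of inhibitory interneurons, 1 of 6 Purkinje markers (Foxp2), 2 of 6 glial markers, 2 of 6 oligodendrocyte markers and 1 of 4 each of the microglial and endothelial markers. The part of other cells in the results was not tested. Of all these markers, only Gli2 and Pdgfra hosted one of the 311 regions.

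The DNA under 9 of the summits shows the short words that the sequence comparisons below count. Shown are 201 bp centred on the Chd7 summit, on the plus strand of mm10. They cover 6 of the strongest regions by −log10 q-value (Reln, Cerkl, Ddx31, Ptprk, Celf2 and Srgap2). Also shown are the strongest of several windows tied as richest in the 3 words (Dync1i2), and the strongest regions with a Top2b peak in both genotypes (E130114P18Rik) and in WT CGNs alone (Ralgapa2). Capitals mark 2 forms of the E-box, CAGATG and CAGCTG, which basic helix-loop-helix factors bind, and TTGGCA, the word that 1 subunit of a nuclear factor I (NFI) dimer contacts. A word on the opposite strand reads CATCTG or TGCCAA, and CAGCTG reads the same on both.
Reln, chr5:22093380-22093580: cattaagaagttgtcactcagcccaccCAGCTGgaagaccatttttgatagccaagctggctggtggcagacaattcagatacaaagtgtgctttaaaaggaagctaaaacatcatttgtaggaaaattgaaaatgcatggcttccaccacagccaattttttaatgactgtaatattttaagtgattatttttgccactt
Cerkl, chr2:79399689-79399889: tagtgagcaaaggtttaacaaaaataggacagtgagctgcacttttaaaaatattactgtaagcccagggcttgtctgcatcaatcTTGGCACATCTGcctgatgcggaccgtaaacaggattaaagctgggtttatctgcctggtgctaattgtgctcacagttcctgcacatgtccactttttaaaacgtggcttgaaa
Ddx31, chr2:28867532-28867732: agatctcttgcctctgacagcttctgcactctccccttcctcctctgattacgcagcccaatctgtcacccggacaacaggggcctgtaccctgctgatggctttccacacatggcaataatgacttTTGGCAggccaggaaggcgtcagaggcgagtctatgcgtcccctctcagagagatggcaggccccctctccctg
Ptprk, chr10:28345375-28345575: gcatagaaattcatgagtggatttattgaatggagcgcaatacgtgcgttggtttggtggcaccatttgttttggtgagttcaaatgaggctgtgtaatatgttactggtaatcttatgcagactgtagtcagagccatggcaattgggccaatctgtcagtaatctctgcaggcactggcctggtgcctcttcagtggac
Celf2, chr2:7038963-7039163: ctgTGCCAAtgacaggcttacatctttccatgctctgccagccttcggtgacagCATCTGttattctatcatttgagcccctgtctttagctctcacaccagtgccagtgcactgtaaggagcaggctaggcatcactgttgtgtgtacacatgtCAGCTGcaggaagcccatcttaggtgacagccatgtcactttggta
Srgap2, chr1:131351547-131351747: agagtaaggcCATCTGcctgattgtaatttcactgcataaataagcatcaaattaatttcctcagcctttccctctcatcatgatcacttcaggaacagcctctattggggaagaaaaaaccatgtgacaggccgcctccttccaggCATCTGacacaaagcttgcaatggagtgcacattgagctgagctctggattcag
Dync1i2, chr2:71245486-71245686: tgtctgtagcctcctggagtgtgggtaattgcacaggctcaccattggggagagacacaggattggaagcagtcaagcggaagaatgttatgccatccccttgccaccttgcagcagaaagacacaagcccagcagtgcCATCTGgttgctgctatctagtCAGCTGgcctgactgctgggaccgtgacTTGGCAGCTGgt
E130114P18Rik, chr4:97618651-97618851: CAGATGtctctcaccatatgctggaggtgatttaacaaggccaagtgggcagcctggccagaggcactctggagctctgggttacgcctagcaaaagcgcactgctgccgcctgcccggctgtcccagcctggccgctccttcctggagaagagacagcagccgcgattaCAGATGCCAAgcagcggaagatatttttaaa
Ralgapa2, chr2:146414810-146415010: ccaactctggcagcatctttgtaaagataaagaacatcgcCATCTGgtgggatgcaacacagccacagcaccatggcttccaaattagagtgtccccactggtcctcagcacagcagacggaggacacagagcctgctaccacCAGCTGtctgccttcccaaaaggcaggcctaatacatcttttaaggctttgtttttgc
The window at Dync1i2 held 2 copies of CAGCTG, 1 of CAGATG and 1 of TTGGCA, the last of which overlapped a CAGCTG. The window at Cerkl held a TTGGCA directly followed by a CAGATG on the opposite strand, and the window at Celf2 held 1 copy of each word. The window at Reln held a single CAGCTG, and none of the words occurred at Ptprk.

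The strength of Chd7 binding is described by the deposited pileup, the number of fragments at the summit, by the enrichment relative to local background (in fold), and by the q-value on the −log10 scale. Over the 311 regions the pileup ranged from 13 to 50 fragments with a median of 21, the fold enrichment from 2.33 to 13.7 with a median of 4.07, and the −log10 q-value from 1.36 to 38.8 with a median of 4.47. The peaks were 304 to 1170 bp wide, with a median of 429 bp. Their fold enrichment differed little from that of the distal peaks outside genes (median 4.21) and of the promoter peaks (median 3.98). The regions just inside the 1 kb limit, in Atxn1, BC034090 and Rsf1, lay 1005, 1034 and 1044 bp from a start with Chd7 fold enrichments of 5.03, 3.03 and 3.26. Just outside it, the peaks in Myo10 and Leng9 lay 969 and 921 bp from a start with fold enrichments of 4.09 and 2.76. At the limit on H3K27ac, the region in Irs1 shared only 2 bp with an H3K27ac peak, and the nearest Chd7 peak left out, in Parvb, missed one by 22 bp.

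The region of highest enrichment lay in Reln, which encodes the extracellular protein that directs Purkinje cells and other neurons to their layers. It covered chr5:22093017-22093798 in intron 10, 251 kb from the gene start, and reached 50 fragments at the summit, 13.7-fold enrichment and 38.8 on the −log10 q scale. The next highest −log10 q-value was 22.2, in Cerkl, a ceramide kinase-like gene. After these came Ddx31, an RNA helicase gene (19.3), Ptprk, a receptor tyrosine phosphatase gene (18.1), Celf2, an RNA-binding protein gene (16.1), Srgap2, whose product acts downstream of the Slit receptors (16.1), and Tcf4, which encodes a partner of neuronal basic helix-loop-helix factors (15.1). Values between 11.07 and 13.6 were found in Kcnab1, Dync1i2, E130114P18Rik, Orc5, Rfc1 and Zbtb20, among others. Reln stood apart from all others, since the second highest fold enrichment was 7.70, in Ddx31.

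H3K27ac at these regions was high for gene bodies. The strongest overlapping H3K27ac peak had a median fold enrichment of 8.66 (quartiles 5.71 and 14.6), compared with 3.69 (quartiles 3.17 and 4.65) at the 11115 intragenic distal H3K27ac peaks without Chd7. H3K27ac had chosen the regions, so this is a description. The tallest Chd7 peak was not the most acetylated. The Reln region had an H3K27ac fold enrichment of 7.92, below the median, and Ptprk had 7.67, whereas the strongest regions in Tcf4 and Cerkl had 37.8 and 25.4. Of the 311 regions, 225 lay wholly inside an H3K27ac peak and 48 had their summit outside it. The Chd7 summit lay a median of 320 bp from the H3K27ac summit, with 46 regions within 100 bp of it and 64 more than 500 bp away.

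**Figure D1:**
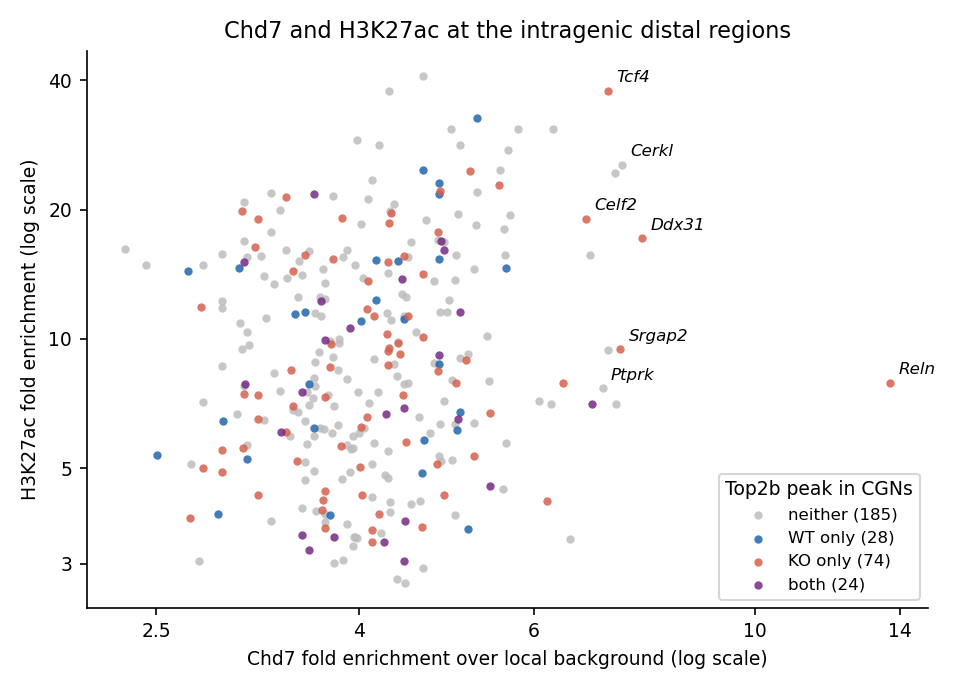
Chd7 fold enrichment (horizontal, log scale) against the fold enrichment of the strongest overlapping H3K27ac peak (vertical, log scale), 1 point per region and 311 regions in all, coloured by Top2b peaks in WT and Chd7-deficient (KO) CGNs. Reln lies far to the right at 13.7 with H3K27ac of 7.92, and the 4 colours are spread over the same area.

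Large acetylated domains, built by joining H3K27ac peaks at the customary stitching distance of super-enhancer calls and taking the top 612 of 17535 by width times pileup as super-enhancer-like, held 93 of the 311 regions (29.9%, 95% interval 25.1 to 35.2%). The share was 17.6% (16.95 to 18.4%) among intragenic distal H3K27ac peaks without Chd7, 18.8% (15.1 to 23.2%) among distal Chd7 peaks outside genes and 18.5% (16.01 to 21.3%) among Chd7 peaks at promoters. The 93 regions fell into 74 domains. Both regions in Tcf4 lay in the domain ranked 5, 3 regions in Clybl in the domain ranked 9, both regions in Chd7 itself in the domain ranked 11, and 3 regions in Nbea in the domain ranked 15. Since H3K27ac chose the regions, these shares are a description. With a joining distance of 5 kb the share fell to 25.1%.

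Almost all summits lay in introns. Introns of the host gene held 289 summits (92.9%, 89.5 to 95.3%), coding exons 13 and untranslated exons 9, and the intron share was 93.1% (92.6 to 93.5%) at the H3K27ac peaks without Chd7. The first intron of the longest protein-coding transcript held 74 summits (23.8%, 19.4 to 28.8%), compared with 27.6% (26.8 to 28.4%) at the H3K27ac peaks without Chd7, and the intervals overlapped. Among the 15 strongest regions, the summit lay in a coding exon in Rfc1, which encodes the largest subunit of the replication clamp loader, and in an untranslated exon in Orc5, which encodes a subunit of the origin recognition complex. Hosts were long genes. Over regions the median host gene length was 187 kb (quartiles 84.0 and 415 kb), compared with 148 kb (quartiles 66.9 and 327 kb) for the H3K27ac peaks without Chd7, and 216 of the 311 regions (69.5%, 64.1 to 74.3%) lay in genes over 100 kb, compared with 63.3% (62.4 to 64.2%). The summits lay a median of 79.7 kb from the start of the host gene, compared with 60.5 kb. They were spread along the genes, at a median of 56.0% of the gene length from its start (quartiles 31.1 and 76.5%), compared with 51.2%. The nearest start of a coding transcript belonged to the host gene at 250 regions (80.4%, 75.6 to 84.4%) and at 81.6% of the H3K27ac peaks without Chd7, so a host is only the gene a region lies in, and its target was not measured.

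The 311 regions lay in 258 genes, of which 220 held 1 region, 26 held 2, 9 held 3 and 3 held 4. Auts2, linked to autism and transcriptional regulation in neurons, held 4 regions over 596 kb, Clybl, a mitochondrial enzyme gene, 4 over 137 kb, and Nbea, which encodes a protein of membrane traffic at synapses, 4 over 42.6 kb. Reln held 3 over 353 kb. Besides the strongest one they lay in intron 1, with a fold enrichment of 4.24, and in intron 43, with 3.21. The nuclear factor I gene Nfib held 3 over 106 kb, the transcription factor gene Ebf1 3 over 274 kb, and the phosphodiesterase gene Pde4d 3 over 513 kb. Frem1, Ralgapa2, Elk3 and E130114P18Rik held 3 each within 158 kb or less, and in Adk, the adenosine kinase gene, 3 regions lay within 2.07 kb of each other under 1 H3K27ac peak. In Nbea the nearest start at all 4 regions was that of Mab21l1, a developmental gene lying within Nbea, at 2.16 to 30.8 kb. Such neighbours are not independent regions.

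**Figure D2:**
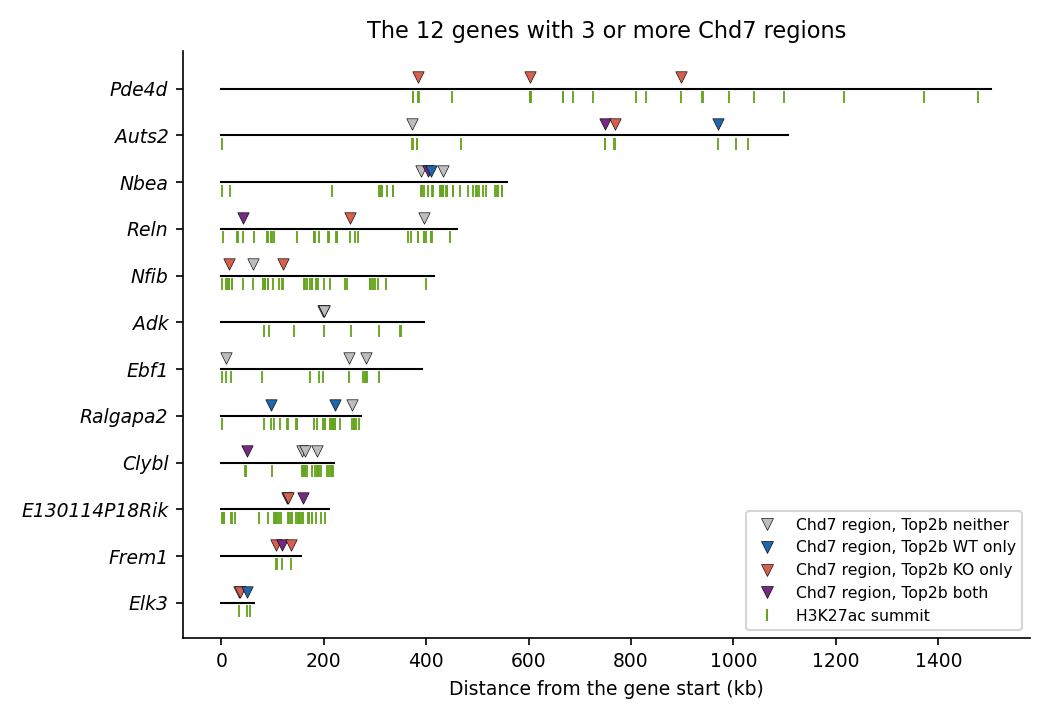
The 12 genes with 3 or more Chd7 regions, drawn from their start (0 kb) to their end, with Chd7 regions as triangles coloured by Top2b peaks in CGNs (KO is Chd7-deficient) and H3K27ac summits as ticks. The regions of Adk lie within 2.07 kb, those of Auts2 are spread over 596 kb, and Nfib has 41 H3K27ac summits for its 3 regions.

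Several regions, some of them strong, lay in 1 gene but near the start of a transcription factor gene of the granule lineage. The 2 regions in Cerkl lay 57.0 and 50.7 kb from the start of Neurod1, a basic helix-loop-helix factor of granule neuron differentiation, with −log10 q-values of 22.2 and 7.90, and both lay in a super-enhancer-like domain. The 2 regions in Ddx31 lay 49.0 and 55.5 kb from the start of Barhl1, a homeobox factor of granule cells, with −log10 q-values of 19.3 and 4.69. Of the regions in Ralgapa2, 2 lay 34.6 and 69.1 kb from Insm1, a zinc finger factor of neural progenitors, with lower −log10 q-values of 2.38 and 4.58. In Clybl, 1 region lay 98.1 kb from Zic5, with 6.89. Counting also the regions inside Nfib and Ebf1, 10 of the 311 regions (3.22%, 1.76 to 5.82%) lay within 100 kb of the start of one of the 80 listed transcription factor genes, compared with 2.45% (2.18 to 2.75%) of the H3K27ac peaks without Chd7, and the intervals overlapped.

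Some hosts were genes of neuronal wiring and excitability. Of 42 listed genes of axon guidance and growth, 7 held a region (Reln, Unc5c, Robo1, Robo2, Sema6a, Efnb2 and Gap43), as did 13 of 66 genes of cell and synaptic adhesion, 11 of 43 ion channel genes and 5 of 44 genes of neurotransmitter receptors and their scaffolds. Of all 21728 protein-coding genes by name, 258 (1.19%) held one. The count was repeated among genes that could hold such a region. Among genes with at least 1 intragenic distal H3K27ac peak, a Chd7 region was present in 7 of the 28 axon guidance genes, 25.5% of the 51 adhesion genes, 35.5% of the 31 ion channel genes and 17.9% of the 28 receptor and scaffold genes, compared with 7.43% of all 3471 such genes. These listed genes were also long, with medians of 309, 523, 319 and 409 kb, compared with 77.0 kb for all 3471, and the part of length in these shares was not tested. The lists were chosen with earlier results of these data known, so the shares are a description only.

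Among the axon guidance genes, the netrin receptor gene Unc5c held a region in intron 1 with a Chd7 fold enrichment of 4.59 and the growth cone gene Gap43 one in intron 1 with 4.81. The Slit receptor genes Robo1, with 2 regions, and Robo2, with 1, had fold enrichments of 5.59, 4.05 and 6.07. The adhesion genes included Ptprk, Ptprd, Ptprs, Nrxn3, Cntnap2, Cdh4, Cdh8, Pcdh9, Tenm1, Lsamp, Ntm, Dscam and Igsf21. The region in Ptprd lay 1842 kb from the gene start and that in Cntnap2 1288 kb. The ion channel genes included the calcium channel genes Cacna1a, Cacna1c and Cacna2d1 (fold enrichments 3.92, 4.64 and 4.02), the sodium channel gene Scn8a (4.12), and the potassium channel genes Kcnd3, Kcnip4, Kcnj3, Kcnj6, Kcnma1 and Kcnq5. The synaptic genes were Grm4, Dlg2, Dlg4, Dlgap1 and Magi1.

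Regulators of transcription also hosted regions. Of 80 genes listed as transcription factors, 5 held a region (among them Nfib, Tcf4, Ebf1 and Auts2), with 13 regions between them. The list includes Auts2, a gene linked more broadly to transcriptional regulation, which held 4 of the 13. Of 76 matched chromatin regulators, 5 held a region (among them Chd7, Chd3, Bcl7a and Kdm4a). Among genes with an intragenic distal H3K27ac peak these were 10.2% of 49 and 15.2% of 33, beside 7.43% of all. Both shares rest on only 5 genes, and these lists too were chosen with earlier results of these data known. The listed genes with such a peak had median lengths of 139 and 105 kb, compared with 77.0 kb for all. The part of length was not tested. Chd7 itself held 2 regions, in introns 3 and 23, with fold enrichments of 5.26 and 3.05 under H3K27ac of 32.6 and 19.8. Of 26 genes of Sonic hedgehog signalling and the cell cycle, 3 held a region, which is 21.4% of the 14 with an intragenic distal H3K27ac peak. They were the pathway inhibitor gene Sufu (4.30), the effector gene Gli2 (4.90) and Cdk6 (3.89).

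The study listed genes with lower transcripts in Chd7-deficient GNPs and genes lowered in CGNs both without Chd7 and by an inhibitor of topoisomerase II. Only the names were used here, and since the study chose both lists on RNA of these cells, they are not independent evidence. The second list, as used here, holds 203 names. It is shorter than the set the study describes, so its counts cover only part of that set. The study also reports that most genes of its set rose as the cells differentiated. The names used here are as many as those rising genes, so the list may also have been selected for that rise. This was not tested. Of 132 names of the first list matched to the annotation, 15 held a region, and of 194 of the second, 31 did. Counted over genes with an intragenic distal H3K27ac peak these were 20.3% of 74 and 31 of 135, compared with 7.43% of all. Their median lengths were 171 and 321 kb, compared with 77.0 kb. In all, 47 of the 311 regions lay in a gene of either list. Hosts on both lists included Reln, Ptprk, Kcnj3, Dach1, Gpm6a, Dlg2, Cacna2d1, Skap2, Plcl1 and B3galt2. A set of 18 named genes was also checked. Of these, Reln, Gap43, Unc5c, Cacna2d1, Dlg2, Gpm6a and Chd7 held a region and the other 11 held none. The set was taken from the study's text or its gene lists. Neurod1, Kcnd2 and Nefl had no intragenic distal H3K27ac peak. Only intragenic distal regions were counted, so a gene without one may still be bound by Chd7 elsewhere. The study reports Chd7 binding at Neurod1 and Cadps2, which held no region here.

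Top2b peaks of WT CGNs overlapped 52 of the 311 regions (16.7%, 12.98 to 21.3%), and those of Chd7-deficient CGNs overlapped 98 (31.5%, 26.6 to 36.9%). At intragenic distal H3K27ac peaks without Chd7 the shares were 6.05% and 9.32%, so Top2b was called more often at the Chd7 regions in both genotypes, although these H3K27ac peaks were wider (median 519 against 429 bp). Counted instead as a Top2b peak centred within 500 bp of the summit, which does not depend on width, the shares were 18.3% and 32.2% at the Chd7 regions and 5.33% and 8.51% at the H3K27ac peaks without Chd7. Counted as a Top2b peak covering the summit, they were lower, at 9.003% and 22.8% compared with 2.49% and 4.03%. In both of these counts the summit was that of Chd7 at the Chd7 regions and that of H3K27ac at the other peaks. The 2 sets were therefore not anchored alike, and the size of the difference also depends on this choice. Over all 1946 WT Chd7 peaks the shares were 16.6% and 34.2%. The intragenic regions resembled the other active Chd7 peaks, with 16.9% and 36.8% at distal peaks outside genes and 18.1% and 40.1% at promoters. Where both lay together, the centre of the Top2b peak was a median of 164 bp from the Chd7 summit in WT and 146 bp in Chd7-deficient CGNs. Only Top2b peaks that overlapped the Chd7 peak were measured, which by itself keeps this distance short.

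**Figure D3:**
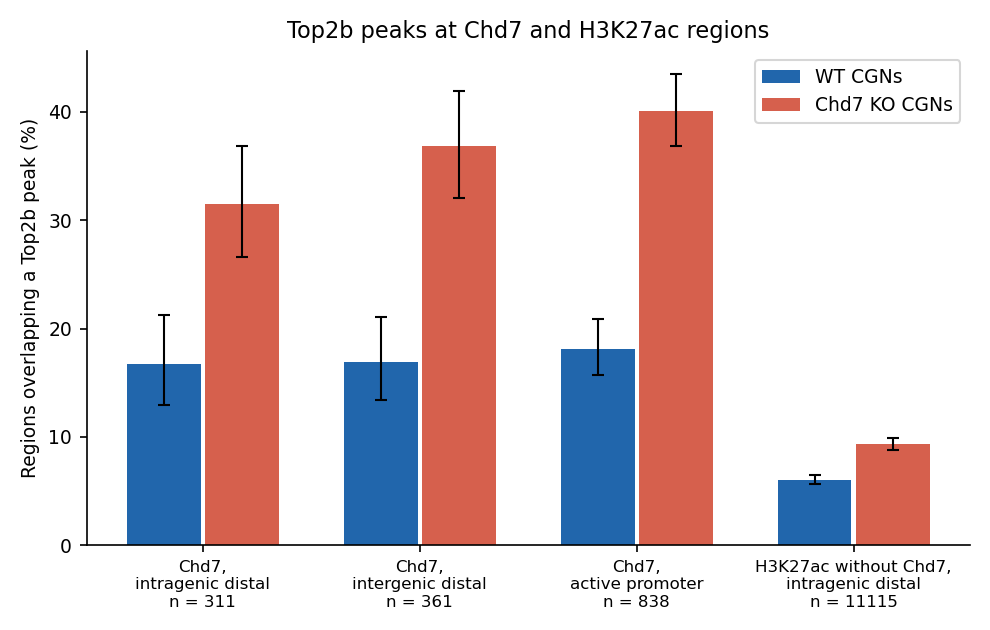
Share of regions (vertical axis, %) that overlap a Top2b peak of WT (blue) or Chd7-deficient (KO, red) CGNs, for the 311 intragenic Chd7 regions and 3 sets for comparison. Bars are shares and whiskers 95% Wilson intervals. All 3 Chd7 sets lie above the H3K27ac peaks without Chd7, at 6.05 and 9.32%.

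H3K27ac was higher at the Chd7 regions, and Top2b was called more often where H3K27ac was high. The comparison was therefore repeated within 4 equal groups of rising H3K27ac fold enrichment, over H3K27ac peaks. In the highest group, WT Top2b overlapped 23.2% (18.5 to 28.8%) of 254 H3K27ac peaks with one of the 311 regions and 12.2% (11.0 to 13.6%) of 2597 without Chd7, and Top2b of Chd7-deficient CGNs overlapped 38.2% (32.4 to 44.3%) and 19.7% (18.2 to 21.3%). In the next highest group the WT shares were 27.8% of 36 and 5.06% of 2805. The 2 lower groups held only 17 and 9 H3K27ac peaks with a Chd7 region. In the highest group the H3K27ac peaks with a Chd7 region were wider, with a median of 1952 bp compared with 1277 bp. Counting only Top2b peaks centred within 500 bp of the H3K27ac summit, a comparison added after the data had been seen, gave 15.4% (11.4 to 20.3%) and 8.28% (7.28 to 9.40%) in this group for WT, and 27.2% (22.1 to 32.9%) and 14.98% (13.7 to 16.4%) for Chd7-deficient CGNs.

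The larger number in Chd7-deficient CGNs has to be read against the peak lists as a whole, which held 21505 peaks of 400 bp in Chd7-deficient and 17030 peaks of 396 bp in WT CGNs. Few peaks were shared. Of the WT Top2b peaks 16.8% overlapped one of the Chd7-deficient sample, and of the latter 13.3% overlapped a WT peak. Of the 52 regions with a WT Top2b peak, 24 also had one in Chd7-deficient CGNs (46.2%, 33.3 to 59.5%), compared with 34.4% (30.9 to 38.1%) of H3K27ac peaks without Chd7 that had a WT Top2b peak. These intervals overlapped. At the other Chd7 peaks the share was higher, at 63.9% (51.4 to 74.8%) of 61 distal peaks outside genes and 59.9% (51.9 to 67.3%) of 152 promoter peaks. These shares count regions that a Top2b peak of each genotype touched. The Top2b peaks themselves need not overlap, as in Ttc28, so the shares cannot be set against the 16.8% of WT Top2b peaks. In all, 28 regions had Top2b in WT alone, 74 in Chd7-deficient CGNs alone and 185 in neither. With 1 library per genotype and no peak heights in the Top2b files, a change in binding, a difference in depth and a difference between samples cannot be told apart.

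The 15 regions of highest −log10 q-value with a WT Top2b peak lay in E130114P18Rik (2 regions), Ralgapa2, Auts2, Dlgap1, Ttc28, Chd7, Rbm20, Mrps27, Slc44a1 (2 regions), Samd12, Atxn1, Trim2 and Dpf3. Of these, the strongest in E130114P18Rik and the regions in Ttc28, Mrps27, Atxn1 and Trim2, and 1 of the 2 in Slc44a1, had Top2b in both genotypes. In Reln, the strongest region had Top2b in Chd7-deficient CGNs alone, the region in intron 1 in both genotypes and the region in intron 43 in neither. In Pde4d all 3 regions had Top2b in Chd7-deficient CGNs and none in WT. In Ralgapa2, 2 of 3 had it in WT and none in Chd7-deficient CGNs. Of the 13 adhesion genes with a region, none had WT Top2b at it and 6 had Top2b of Chd7-deficient CGNs. The counts were 1 and 2 for the 7 axon guidance genes, 1 and 2 for the 11 ion channel genes, and 1 and 2 for the 5 receptor and scaffold genes. All these counts are small. For all 258 host genes these counts were 47 and 87.

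Chd7 enrichment varied little with Top2b. The median Chd7 fold enrichment was 4.27 with WT Top2b alone, 4.12 with Top2b in Chd7-deficient CGNs alone, 4.25 with both and 3.98 with neither. The median H3K27ac fold enrichment was 11.07, 8.45, 7.30 and 8.79, and the median host gene length 186, 182, 168 and 190 kb. Host genes carried Top2b at their own starts more often than other genes. A WT Top2b peak lay within 1 kb of a transcript start in 118 of 258 host genes (45.7%, 39.8 to 51.8%), compared with 26.9% (25.4 to 28.5%) of 3215 genes with an intragenic distal H3K27ac peak and no Chd7 region, and for Chd7-deficient CGNs the shares were 53.1% and 42.5%. H3K27ac was present at a start in 81.8% and 72.9%, and another Chd7 peak lay at a start in 39 host genes (15.1%) compared with 7.19% of the others. The host genes were also longer, with a median of 169.5 kb compared with 78.2 kb for the genes with H3K27ac peaks free of Chd7, and the part of length was not tested.

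The sequence under the summits was marked by E-boxes and NFI words. Within 100 bp of the summit, CAGATG occurred at 136 of the 311 regions (43.7%, 38.3 to 49.3%), CAGCTG at 92 (29.6%, 24.8 to 34.9%) and TTGGCA at 106 (34.1%, 29.0 to 39.5%). In windows of the same length 1 kb to either side they occurred in 16.4%, 8.84% and 10.8% of 622 windows. Either E-box was present at 201 regions (64.6%), and an E-box together with an NFI word at 66 (21.2%, 17.04 to 26.1%), compared with 2.73% of the windows 1 kb away. The windows at the summit had a median GC content of 51.2%, compared with 45.3% 1 kb away. The word CAGCAGG, bound by the Zic zinc finger factors, occurred at 16.4% (12.7 to 20.9%) of regions and in 5.15% of windows 1 kb away. All words were searched on both strands.

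**Figure D4:**
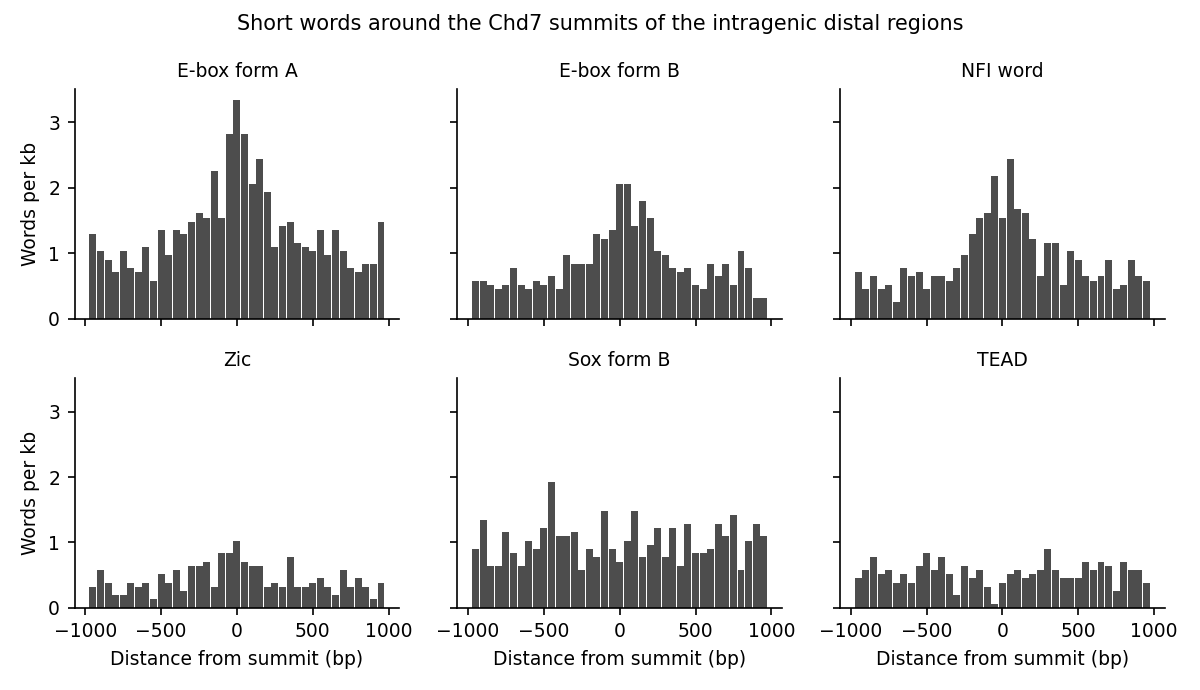
Words per kb of sequence (vertical) in bins of 50 bp by distance from the Chd7 summit (horizontal, bp), over the 311 regions and both strands. E-box forms A and B are the words at 43.7% and 29.6% of regions, and Sox form B is the Sox word at 18.01%. E-boxes and the NFI word rise towards the summit, and the Sox and TEAD words do not. The NFI word is highest in the bins beside the summit.

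The E-box CAGATG reached 3.34 words per kb in the 50 bp at the summit, from a mean of 0.990 at 500 bp or more from it. For CAGCTG these values were 2.06 and 0.585, for TTGGCA 1.54 and 0.617, and for CAGCAGG 1.03 and 0.347. TTGGCA was more frequent just beside the summit, with 2.19 and 2.44 words per kb in the bins centred 50 bp to either side. The Sox word ACAAAG did not rise, with 0.707 at the summit and 0.984 far from it, nor did the TEAD word GGAATG, with 0.386 and 0.563.

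The words were more frequent at the Chd7 summits than at the H3K27ac summits of the same elements. Around the H3K27ac summits of the 316 H3K27ac peaks that these regions overlapped, CAGATG occurred in 17.4% of windows, CAGCTG in 12.97% and TTGGCA in 13.3%, compared with 19.5%, 13.9% and 11.5% around the summits of the 11115 intragenic distal H3K27ac peaks without Chd7. Distal Chd7 peaks outside genes held the words about as often as the intragenic ones, with 41.6% for CAGATG, 27.4% for CAGCTG and 27.15% for TTGGCA. Chd7 peaks at promoters held them at 9.07%, 12.8% and 7.64%, and held the GC box GGGCGG at 54.7% (51.3 to 58.0%). The GC box occurred at 7.40% (4.98 to 10.8%) of the intragenic regions. It was found in 2.73% (1.71 to 4.33%) of windows 1 kb from their summits and at 3.77% of the H3K27ac peaks without Chd7. The median GC content at the promoter peaks was 67.7%.

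Other words were rare or differed less from the windows 1 kb away. The AP-1 word TGANTCA was found at 6.43% of regions and in 6.75% of windows 1 kb away, and the Sox words ACAATG at 7.07% and 9.65% and ACAAAG at 18.01% and 16.9%. The RFX word GTTGCCA was found at 3.54% and 2.41%, the TEAD word at 5.47% and 10.5%, the octamer ATTTGCAT at 2.57% and 0.482%, and the Ets word CCGGAAG at 0.965% and 0.804%. The Gli word TGGGTGGTC occurred at 1 region and in 0.161% of windows 1 kb away, the CTCF consensus at 1 region and in none of these windows, and the CREB word TGACGTCA at 2 regions and in 0.161%. The MEF2 consensus occurred at 3 regions (0.965%, 0.329 to 2.80%), below the 3.70% (2.48 to 5.49%) of windows 1 kb away, with overlapping intervals. The full NFI palindrome occurred at none, which allows a share of up to 0.965% by 3 counts of 311 and has a Wilson upper limit of 1.22%. It was also absent from the 622 windows 1 kb away, the 11115 H3K27ac peaks without Chd7 and the 838 promoter Chd7 peaks. Among the 361 distal Chd7 peaks outside genes it occurred at 1, so its absence does not set the regions apart. A match shows only that the letters are present, and an absent word says nothing of the factor.

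**Figure D5:**
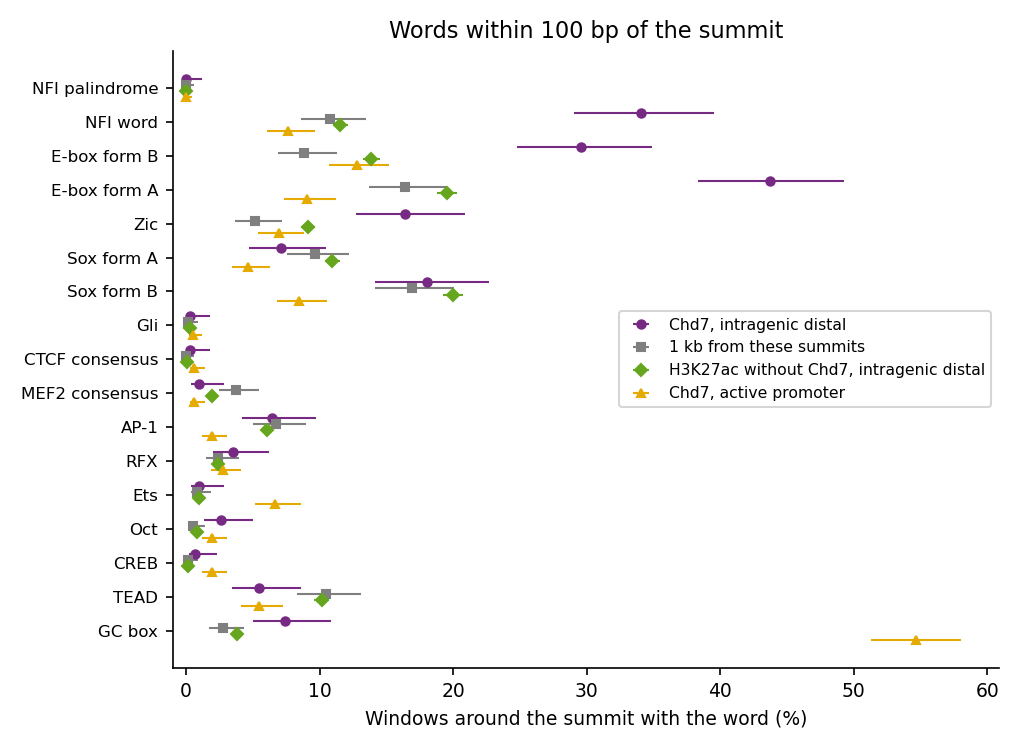
Share of 201-bp windows (horizontal, %) that hold each of 17 words within 100 bp of the summit, with 95% Wilson intervals, for the 311 intragenic Chd7 regions, 622 windows 1 kb away, 11115 H3K27ac peaks without Chd7 and 838 promoter Chd7 peaks. E-box form A is at 43.7% in the Chd7 regions and 16.4% in the windows 1 kb away, and the GC box is at 54.7% in promoter peaks.

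The Top2b shares of regions with and without a word overlapped in their intervals. WT Top2b overlapped 19.9% (14.02 to 27.3%) of the 136 regions with CAGATG and 14.3% (9.87 to 20.2%) of the 175 without, and 14.2% and 18.05% of the regions with and without TTGGCA. Regions with CAGCTG lay in super-enhancer-like domains in 18 of 92 cases (19.6%, 12.8 to 28.8%), compared with 75 of 219 (34.3%, 28.3 to 40.8%) without it, and the intervals overlapped slightly. For CAGATG these shares were 32.4% with and 28.0% without the word, and for TTGGCA 24.5% and 32.7%.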

How the data were processed

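Chromatin immunoprecipitation with sequencing was analysed for Chd7 in GNPs of 2 genotypes, H3K27ac in WT GNPs and Top2b in CGNs of 2 genotypes, with 1 sample per condition. Input libraries were not analysed here. The authors trimmed reads with Trim Galore, mapped them to mm10 with Bowtie 1.0.0 keeping uniquely aligned reads, and used MACS2 with its defaults (Chd7, H3K27ac) or HOMER (Top2b) to call peaks. Which input served as control is not given in the sources used here. The pileup deposited by the authors is a coverage signal, and the other deposited columns hold the fold enrichment and the −log10 of p-values and q-values, all without their decimal points. These were restored (5 decimals) and checked by recomputing Poisson p-values from pileup and background. The median difference in −log10 p was 6.07e-06 for WT Chd7. The deposited Top2b peaks hold coordinates only, with no score. The depth of single samples is unknown here, since the study's methods state only a minimum of mapped reads.

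Overlaps needed 1 bp. Gene models were GENCODE M21 on mm10. Where genes overlapped, the host was the one with the nearest start. Sequence came from GRCm38 (RefSeq), the same assembly as mm10, and lengths and words were counted in Python 3.11.15 with pandas 2.3.3, scipy 1.17.1 and pysam 0.24.0. Overlap counting and word search were tested on simulated data with planted answers. Older symbols of gene lists were matched through RefSeq synonyms. Genes were named if they held 3 or more regions, were among the 15 highest by −log10 q-value, were among 18 taken from the study's text or lists, stood on a gene list, or were among the 15 highest with WT Top2b. The 311 regions and the lists were chosen with earlier results of these data known. Alternatives changed the peak threshold, the start distance, the H3K27ac overlap, the annotation, whether overlap with Chd7-deficient peaks was allowed, the Top2b overlap, the joining distance and the word window. Some genes that the rule for named genes covers are not reported here.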

Additional observations from a re-analysis of the deposited data

How the results depend on the processing

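Of 178 recomputed values, 136 stayed within the counting interval of the reported value, or within 1.5 times it for counts, and 42 moved. A minimum of 5 on the −log10 q scale left 129 regions, 26 of them in genes of the study's lists, with 96.1% of summits in introns, a median of 106.2 kb to the host start and Top2b of Chd7-deficient CGNs at 37.2%. Summits more than 5 kb from every start gave 95.7% in introns, a median host length of 220.2 kb, a median start distance of 106.3 kb and CAGCTG at 23.9%. Requiring H3K27ac over at least 50% of the peak gave a median H3K27ac fold enrichment of 9.61. A joining distance of 5 kb gave 25.1% in super-enhancer-like domains. Counting only Top2b peaks that cover the summit gave 9.003% in WT and 22.8% in Chd7-deficient CGNs. Windows of 50 bp to each side gave CAGATG at 28.3%, CAGCTG at 17.4% and TTGGCA at 16.4%, and windows of 200 bp gave 62.4%, 47.0% and 52.1%, as fewer or more bases were searched. Starts of protein-coding transcripts alone gave 351 regions and moved none of these values. Allowing overlap with Chd7-deficient peaks left the same 311 regions, since no shared peak met the other criteria, and so tested nothing. Its values could not move, yet they are counted among the 178 and among the 136 that stayed. Restricting Top2b to its higher-scoring peaks was not run, since the peaks have no score.

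No paired analysis was possible because each condition has 1 sample. Intervals cover counting error only, regions of 1 gene are not independent, and the read depth of each sample, which limits how many peaks are called, is unknown here.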

Other observations

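Within the 311 regions, Top2b and the words were compared across 4 equal groups of the Chd7 −log10 q-value, from the weakest (79 regions, 1.36 to 3.12) to the strongest (78 regions, 6.38 to 38.8). Top2b of Chd7-deficient CGNs overlapped 21.5% (13.9 to 31.8%) of the weakest group, 31.2% and 40.3% of the next ones and 33.3% (23.9 to 44.4%) of the strongest. For WT Top2b the shares were 18.99%, 11.7%, 16.9% and 19.2%. The E-box CAGATG occurred at 40.5%, 41.6%, 45.5% and 47.4%, and the NFI word TTGGCA at 30.4%, 35.1%, 33.8% and 37.2%, with intervals that overlapped throughout. The median host gene length was 154, 179, 185 and 232 kb, and the median H3K27ac fold enrichment 8.83, 7.54, 8.74 and 10.14. In windows 1 kb away CAGATG occurred at 16.4% and TTGGCA at 10.8%, so the weakest group too held both words more often.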
